A study of Saccharomyces cerevisiae with 15 samples.

Results

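Among 4681 yeast genes, 2319 had mean levels within a log2 difference of 0.5 in cells growing fast on glucose and cells growing on xylose. For 233 of these, the mean level in cells that had used up their glucose differed from the average of both. Of these 233 genes, 144 were higher in the glucose derepressed state (Glc24h) and 89 were lower. Tests against each sugar state on its own were both passed by 75 of the 233. The genes were chosen from the array signals themselves. A gene was taken where Glc24h differed from the equal-weight mean of the glucose repressed state (Glc5h) and the xylose state (Xyl72h) at an adjusted p under 0.05, and where the Glc24h mean lay on the same side of both. The levels of these 233 genes are therefore a description of the rule's outcome, and their contrast is not evidence for it. The p-values below come from that same fit.

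Glucose represses a large set of yeast genes for respiration, gluconeogenesis and the use of other carbon sources. Once glucose is exhausted the cells pass through the diauxic shift and grow slowly on the ethanol they made. Xylose is not a natural carbon source of Saccharomyces cerevisiae, and the strain used here metabolises it through added enzymes. A gene with one level on both sugars and another on ethanol sets the state without sugar apart from both states with sugar.

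All cultures were of 1 strain, VTT-C-99318, a MATα derivative of CEN.PK2-1D that carries the leu2, ura3, trp1 and his3 alleles of its parent. It holds XYL1 and XYL2 of Pichia stipitis at URA3, under a PGK1 and a modified ADH1 promoter, and an extra copy of XKS1 at HIS3 under the modified ADH1 promoter. Aerobic batch cultures started with 50 g/l of sugar in synthetic complete medium. Glc5h cells were taken at 5 h with 37 g/l of glucose left, Glc24h cells at 24 h with no glucose and 13 g/l of ethanol, and Xyl72h cells at 72 h with 32 g/l of xylose left. The Glc5h and Glc24h samples came from the same 3 glucose cultures, and the Xyl72h samples from 3 xylose cultures. Age of the culture, carbon source and growth rate differ together between the 3 states and cannot be told apart. Each state had 3 cultures, numbered 0, 1 and 2 and given in that order below, and culture 2 was hybridised 3 times, so 15 Affymetrix Yeast Genome S98 arrays gave 9 culture values.

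Signals are array intensities after scaling each array to the same 75th percentile of 51.08, and values under 16 were set to 16, the floor, where the arrays do not order genes. Between 50.6% and 53.5% of the probe sets on an array lay under the floor. The spread between cultures was 0.472, 0.461 and 0.347 on the log2 scale in Glc5h, Glc24h and Xyl72h, against 0.165 to 0.169 between hybridisations of 1 culture. The array of Glc24h culture 1 had an actin 3′ to 5′ signal ratio of 10.3, against 1.86 to 3.01 on the other 14 arrays, and its part in the results was not tested. A second control, YER148W, had a 3′ to 5′ ratio of 3.24 on that array, and 2.71 to 4.13 across all arrays. Without Glc24h culture 1 the rule gave 170 genes, of which 134 were among the 233. Without Glc24h culture 0 or 2 it gave 159 or 160 genes, of which 126 or 125 were among the 233. The alpha cell genes STE3 and SAG1 had signal in all cultures, and the a cell genes STE2, BAR1 and AGA2 lay at the floor on every array. Signals are relative within an array, so less of 1 transcript and more of all others cannot be told apart.

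In the fit across all probe sets, 1268 of 5877 probe sets (21.6%) were called (adjusted p under 0.05), 527 of them (8.97%) higher and 741 (12.6%) lower in Glc24h than the mean of both sugar states. Counted by gene, 1076 of 4681 (23.0%) were called, 484 (10.3%) higher and 592 (12.6%) lower. The 144 and 89 genes that meet the rule make up 3.08% and 1.9% of all genes tested. They were 29.8% of the genes called higher, and a smaller share of those called lower (89 of 592). In 284 of the other higher genes and 414 of the other lower genes the Xyl72h mean lay between Glc5h and Glc24h by 0.5 or more. In a further 44 higher and 29 lower genes Xyl72h lay beyond Glc24h. The sugar states lay within 0.5 of each other for 49.5% of the genes tested.

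**Figure D1:**
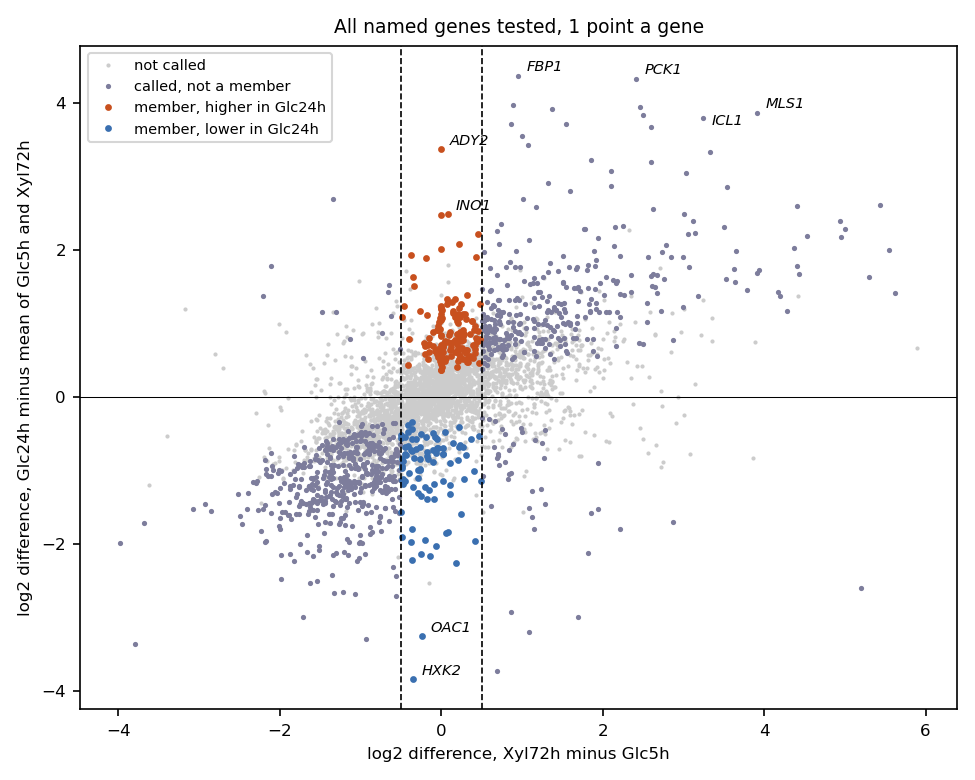
Each point is 1 of 4681 genes, with the log2 difference of Xyl72h and Glc5h on the horizontal axis and the log2 difference of Glc24h and the mean of both on the vertical axis. The dashed lines mark the limit of 0.5. The 144 higher (orange) and 89 lower (blue) genes form the column between the lines, and HXK2 and ADY2 lie farthest from 0 in it. FBP1, PCK1, MLS1 and ICL1 lie to its right, with Xyl72h above Glc5h.

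For the 144 higher genes the median contrast was 0.77 on the log2 scale, with a range of 0.37 to 3.37, and 44 of them reached 2-fold. The 89 lower genes had a median of -0.86, sizes from 0.35 to 3.84, and 36 that reached 2-fold. The median over all genes was -0.02. Every Glc24h culture lay beyond all 6 other cultures for 124 of the 144 and 74 of the 89 genes, while 6.92% and 7.75% of all genes did so in each direction. The genes were chosen on these same values, so this separation follows in part from the rule and is no support for it. For 55 of the 144 higher genes a sugar state was at the floor on every array, where no spread was measured. In the state where each gene was highest, the median signal was 36.9 for the higher genes and 131 for the lower genes, which tells how near the floor they lay and does not rank expression between probe sets.

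The agreement of the sugar states rests on an estimate. The 95% interval of the difference of Xyl72h and Glc5h stayed within 1 on the log2 scale for 132 of the 144 and 62 of the 89 genes. Among the lower genes ARO3, CKB1, TUM1 and HEM4 had a difference that was itself called (adjusted p = 0.0185, 0.0227, 0.0422 and 0.049, limma). In these genes the Xyl72h mean lay between Glc5h and Glc24h. For 48 of the higher genes every Glc5h culture was at the floor, for 20 every Xyl72h culture was, and for 13 both states were. Agreement at the floor says only that neither was measured, and the folds given for these genes are lower bounds. Within the limit the xylose cells lay on the Glc24h side of Glc5h for 94 of the 144 and 64 of the 89 genes. For the 48 higher genes with Glc5h at the floor Xyl72h could not lie below it, so the floor limited the side. The share over all genes was not counted, and a lean of the xylose cells was not tested.

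Tested against each sugar state on its own, 129 of the 144 higher genes passed against Glc5h and 52 against Xyl72h, and 50 passed both. Of the 89 lower genes, 81 passed against Glc5h, 27 against Xyl72h and 25 both. These comparisons share the Glc24h samples. Over all genes 15.8% were called higher and 20.9% lower against Glc5h, and 2.67% and 2.61% against Xyl72h. With the culture number as a block, 130 and 55 of the higher genes passed against Glc5h and Xyl72h (54 both), and 80 and 42 of the lower genes (40 both), where 17.8% and 3.14% of all genes were called higher and 24.0% and 3.63% lower. Values with this block are given below where they change the call of a pairwise p that is printed. The genes that did not pass against Xyl72h in either fit were not shown to differ from the xylose cells on their own.

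The 3 genes just inside the limit were HIS4 (-0.496 for the log2 difference Xyl72h minus Glc5h), GFA1 (0.497) and YPI1 (-0.498). Just outside it were YNK1 (0.502), VMR1 and RFU1 (both 0.503). For all 6 genes the 95% interval of that difference included the limit.

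The direction of the contrast held within each of the 3 culture numbers for 143 of 144 and 89 of 89 genes. These are the values that chose the genes, so this follows largely from the rule. The median of the higher genes was 0.79, 0.91 and 0.68 within numbers 0, 1 and 2, and that of the lower genes -0.92, -0.97 and -0.86. With the culture number as a block, 143 lower genes met the rule in place of 89. The balance of directions depends on the scaling, as 41.6% of all probe sets called were higher here, 59.9% with the scaling as deposited and 74.7% when 4 reference genes set the scale. The rule was met by 178 of the 233 genes with the scaling as deposited, 191 with quantile normalization, 176 with cyclic loess and 115 with reference genes. The contrast was called under all 4 of these scalings for 117 of the 144 higher genes and for 25 of the 89 lower genes, and under none of them for 21 lower genes. The lower genes therefore lost their call under these 4 scalings far more often than the higher genes did. The median contrast of all genes was -0.024 here and 0.098 with the scaling as deposited. It was -0.022 with quantile normalization, -0.003 with cyclic loess and 0.183 with reference genes. None of the 4 lowered the Glc24h level, so how the higher genes depend on a downward shift was not tested.

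HXK2 had the largest fall. It encodes hexokinase 2, the main glucose phosphorylating enzyme of cells on glucose and a partner in glucose repression. Its signal was 713, 612 and 335 in Glc5h, 36.1, 21.9 and 44.3 in Glc24h and 394, 460.1 and 395 in Xyl72h. No Glc24h culture came near a sugar culture, and the fall was 16.1-fold against Glc5h (adjusted p = 0.000269, limma) and 12.7-fold against Xyl72h (adjusted p = 0.00255). Xylose and glucose cells differed by -0.34 on the log2 scale, with a 95% interval of -1.14 to 0.45.

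HXK2 was 1 of 4 glycolytic genes of the 20 tested that met the rule, all of them lower, while 1.9% of all genes met it as lower. The others encode enzymes of regulated steps of the pathway. PFK1 and PFK2 encode the alpha and beta subunits of phosphofructokinase. PFK1 gave 374, 425 and 511 in Glc5h, 297, 262 and 299 in Glc24h and 470.1, 380.3 and 412 in Xyl72h. PFK2 gave 461, 502 and 397 in Glc5h, 301, 278 and 297 in Glc24h and 547, 575 and 558 in Xyl72h. Neither overlapped, though the falls were small, at 1.52-fold against Glc5h for PFK1 (adjusted p = 0.0166) and 1.55-fold for PFK2 (adjusted p = 0.00477). Against Xyl72h PFK2 passed (1.92-fold, adjusted p = 0.00553) and PFK1 did not (adjusted p = 0.0782). The contrast of PFK1 was not called under any of the other 4 scalings (adjusted p up to 0.547), and that of PFK2 was called only with the scaling as deposited (up to 0.204).

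CDC19 encodes the major pyruvate kinase. It gave 2520, 1326 and 1212 in Glc5h, 892, 518 and 648 in Glc24h and 1922, 1088 and 1058 in Xyl72h. Culture 0 was the highest in every state, so the spread was wide, and the contrast was -1.11 ± 0.32 (log2, SE). It lost its call in 13 of 21 alternatives, cyclic loess and reference genes among them (adjusted p up to 0.16). CDC19 did not pass against Xyl72h (adjusted p = 0.205, limma), though it did with the culture number as a block (adjusted p = 0.021). PDC1 encodes the main pyruvate decarboxylase, which opens the route from pyruvate to ethanol. Its signal was 1848, 869 and 686 in Glc5h, 308, 187 and 130.4 in Glc24h and 1257, 671 and 617 in Xyl72h. The 3 Glc24h cultures lay under all 6 others, and the test against Xyl72h gave an adjusted p of 0.0534, or 0.00429 with the culture number as a block. Of all 20 glycolytic genes 5 were called lower and none higher, where 12.6% of all genes were called lower. The median contrast of the 20 was -0.60. Under the other 4 scalings that median stayed negative, between -0.40 and -0.10, with 2 to 4 genes called lower and 0 to 2 higher.

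The oxidative pentose phosphate pathway makes NADPH, and GND1 encodes its major 6-phosphogluconate dehydrogenase. GND1 had 782, 593 and 430.3 in Glc5h, 120.2, 126 and 148 in Glc24h and 454, 446 and 451 in Xyl72h. The xylose cultures agreed closely, and the Glc24h signal was 4.47-fold below Glc5h and 3.44-fold below Xyl72h (adjusted p = 0.000404 and 0.00519). It was the single gene of 16 in that pathway to meet the rule, against 1.9% of all genes as lower. In the pathway 5 were called lower and 2 higher, against 12.6% and 10.3% of all genes. ALD5, a mitochondrial acetaldehyde dehydrogenase, gave 60.9, 118 and 49.6 in Glc5h, 23.1, 16 and 25.5 in Glc24h and 118, 69.5 and 103 in Xyl72h. In Glc24h it was close to the floor. GPP2, a glycerol 3-phosphatase of glycerol synthesis, gave 65.4, 45.8 and 138 in Glc5h, 32.4, 16.7 and 17.9 in Glc24h and 89.1, 81.3 and 67.3 in Xyl72h, and its contrast was -1.84 ± 0.37.

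**Figure D2:**
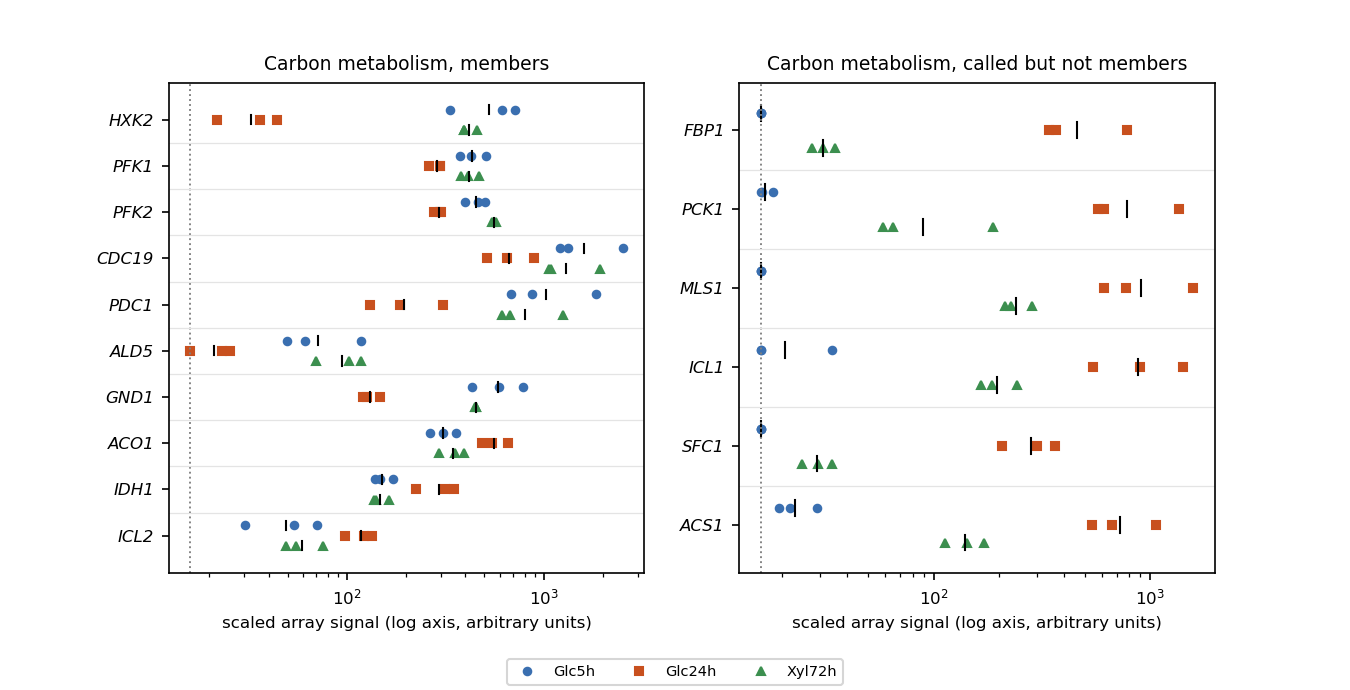
Array signal on a log axis for each of 3 cultures per state (symbols), with a black tick at the geometric mean and a dotted line at the floor of 16. The left panel shows genes that met the rule, from HXK2 with Glc24h far below both sugar states to ICL2 with Glc24h above them. The right panel shows 6 called genes that did not, where Xyl72h lay above Glc5h.

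The glyoxylate cycle and gluconeogenesis turn acetyl units into sugar phosphates. Of 14 genes tested in the list drawn up for these pathways, 12 were called higher, against 10.3% of all genes. Of these 12, ICL2 and ACO1 met the rule, against 29.8% of all genes called higher and 3.08% of all genes tested. ACO1 is counted in the citric acid cycle list as well. ACO1, aconitase of the citric acid and glyoxylate cycles, gave 359.9, 264 and 306 in Glc5h, 657, 549 and 484 in Glc24h and 395, 295 and 354 in Xyl72h. ICL2, a mitochondrial 2-methylisocitrate lyase, gave 54.1, 30.4 and 70.5 in Glc5h, 123, 134 and 97.8 in Glc24h and 55.4, 49.1 and 75.6 in Xyl72h. All Glc24h cultures were above the rest for both genes, by 1.82-fold and 2.4-fold against Glc5h. Neither passed against Xyl72h (adjusted p = 0.0721 and 0.136), though ACO1 did with the culture number as a block (adjusted p = 0.0302).

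IDH1, a subunit of the NAD-dependent isocitrate dehydrogenase, passed against both states. Its signal was 171, 147 and 138 in Glc5h, 349, 317 and 225 in Glc24h and 164, 137 and 140.5 in Xyl72h. The Xyl72h and Glc5h cultures interleaved, and Glc24h stood 1.93-fold and 1.99-fold above them (adjusted p = 0.00681 and 0.026). In the citric acid cycle 7 of 16 genes were called higher, and IDH1 and ACO1 met the rule, against 10.3% and 3.08% of all genes. With quantile normalization and with cyclic loess 13 of the 16 were called higher.

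Other called genes of ethanol growth had Xyl72h above Glc5h by more than the limit. FBP1, the fructose-1,6-bisphosphatase of gluconeogenesis, gave the floor of 16 in all 3 cultures in Glc5h, 781, 367 and 342 in Glc24h and 27.5, 35 and 30.9 in Xyl72h. PCK1, phosphoenolpyruvate carboxykinase, gave 16, 18.2 and 16.1 in Glc5h, 1349, 611 and 573 in Glc24h and 58.7, 188 and 64.9 in Xyl72h. The log2 difference of Xyl72h and Glc5h was at least 0.95 for FBP1 (adjusted p = 0.0516) and 2.42 for PCK1 (adjusted p = 0.0114). For MLS1 (malate synthase) that difference was at least 3.91, for ICL1 (isocitrate lyase) 3.25, for ACS1 (acetyl-CoA synthetase) 2.60 and for SFC1 (mitochondrial succinate and fumarate carrier) at least 0.86. Their contrasts, from 3.67 to 4.37, are lower bounds for FBP1, MLS1 and SFC1, which were at the floor in Glc5h. The 25 respiratory chain and 16 ATP synthase genes held no gene that met the rule. Over all genes 3.08% met it as higher and 1.9% as lower, so none in lists of this size is near that share. In these lists 3 and 1 genes were called higher, against 10.3% of all genes. With quantile normalization 13 and 9 were called higher, and with cyclic loess 14 and 9.

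ADY2 had the largest contrast of the higher genes. It encodes a plasma membrane acetate carrier that is also linked to ammonium export. Its signal was 272, 168 and 99.5 in Glc24h and the floor in all 6 sugar cultures, a rise of at least 10.4-fold. STL1, the glycerol proton symporter, followed the same pattern with 111, 98.4 and 64.5 in Glc24h and the floor elsewhere, at least 5.57-fold. RSB1, a sphingoid base transporter, had 57.1, 71.6 and 66.4 against the floor in the 6 others, at least 4.05-fold. These are 3 of the 13 higher genes with both sugar states at the floor.

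INO1, inositol 3-phosphate synthase of phospholipid synthesis, was measured in every culture. It gave 58.3, 39.8 and 34.6 in Glc5h, 308, 224 and 223 in Glc24h and 27.9, 58.1 and 58.7 in Xyl72h. The sugar cultures overlapped each other and none reached the Glc24h range, which was 5.77-fold and 5.45-fold higher (adjusted p = 0.00146 and 0.00908). YIG1, named for its interaction with glycerol 3-phosphatase, had 68.6, 113 and 85.7 in Glc24h, the floor of 16 in all 3 cultures in Glc5h and 22.6, 16 and 29.4 in Xyl72h.

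Of 47 nitrogen catabolite repressed genes and permeases 12 were called higher and 1 lower, and MUP3 and UGA2 met the rule. Of all genes 10.3% were called higher and 3.08% met the rule as higher, and 2 of 47 is near the latter share. ARO10 encodes a phenylpyruvate decarboxylase of the Ehrlich pathway, which turns aromatic and other amino acids into fusel alcohols. It had 92.9, 79.9 and 52.6 in Glc24h, the floor of 16 in all 3 cultures in Glc5h and 19.5, 16.3 and 20.1 in Xyl72h. ARO9, the aromatic aminotransferase of the same route, had 45.9, 46.1 and 23.2 in Glc24h and the floor in all 6 sugar cultures. Both genes had their lowest Glc24h signal in culture 2. YCT1, a cysteine transporter, gave 16, 19.2 and 19.9 in Glc5h, 78.5, 47.2 and 67.8 in Glc24h and the floor of 16 in all 3 cultures in Xyl72h. MUP3, a low-affinity methionine permease, gave 16, 23.3 and 22.8 in Glc5h, 68.3, 44.6 and 57.1 in Glc24h and 16, 16 and 16.1 in Xyl72h. In both of these the xylose cells were the lowest. UGA2, succinate semialdehyde dehydrogenase of 4-aminobutyrate breakdown, had 31.4, 43.8 and 47.1 in Glc24h against 16 to 25.1 in the sugar cultures.

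LEU5, a carrier needed for coenzyme A in mitochondria, had 35.4, 42.1 and 48.6 in Glc24h and at most 18.4 elsewhere. CLD1, a cardiolipin-specific phospholipase of mitochondria, had 41.1, 48 and 39.2 and at most 21.3 elsewhere. PCT1, an enzyme of phosphatidylcholine synthesis from choline, had 27.6, 27.1 and 28.8 against 16 to 26.6. The ranges of PCT1 came within 1 signal unit of each other, and it lost its call in 15 of 21 alternatives (adjusted p up to 0.959). Among genes of unknown or little known function, YKL068W-A, YGR079W, YHL008C and YNL193W met the rule with contrasts of 1.93 ± 0.41, 1.27 ± 0.12, 1.26 ± 0.19 and 1.23 ± 0.19. YKR104W, part of a split ABC transporter gene in the reference strain, was at the floor in all sugar cultures and had 42.1, 34.5 and 34.5 in Glc24h.

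**Figure D3:**
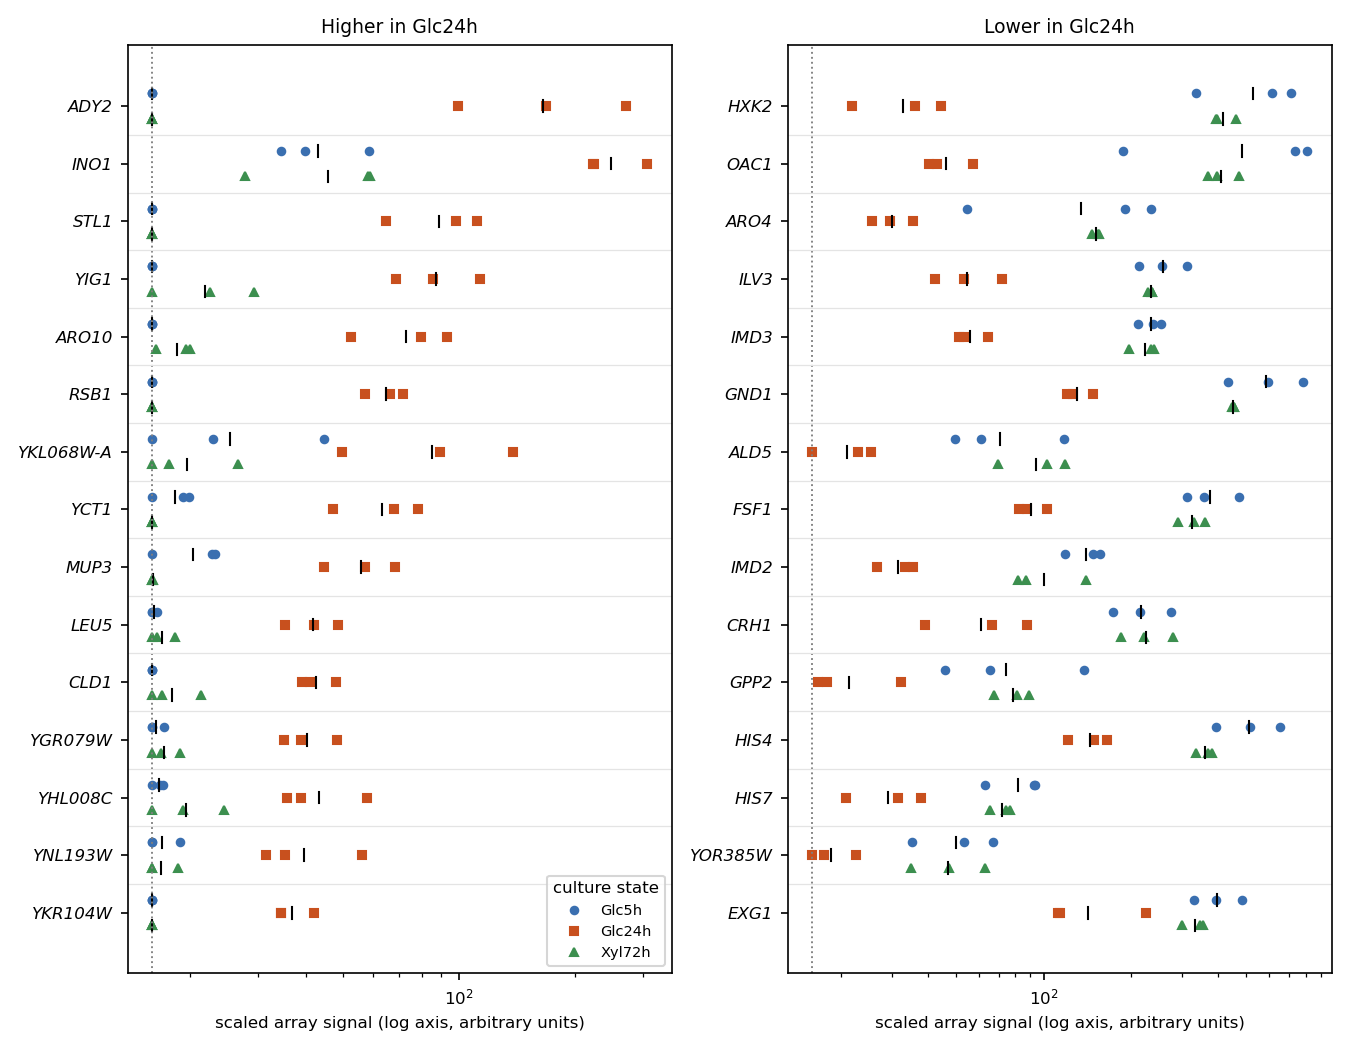
Array signal on a log axis for each of 3 cultures per state, for the 15 genes with the largest contrast in each direction among those that passed against both sugar states. Black ticks are geometric means and the dotted line is the floor of 16. In every gene shown the 3 Glc24h cultures (orange squares) lie apart from the 6 sugar cultures.

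Among regulators of growth without sugar, HAP3 and SIP1 met the rule. HAP3, a subunit of the activator of respiratory genes, gave 20.2, 24.1 and 16 in Glc5h, 40.3, 52.6 and 46.3 in Glc24h and 22.8, 23.1 and 28.2 in Xyl72h, 2.33-fold and 1.88-fold higher in Glc24h (adjusted p = 0.00248 and 0.0338). SIP1, a beta subunit of the Snf1 kinase complex, gave the floor of 16 in all 3 cultures in Glc5h, 26.5, 35.2 and 23.1 in Glc24h and 19.9, 22.6 and 17.3 in Xyl72h. It passed against Glc5h (adjusted p = 0.0105) and not against Xyl72h (adjusted p = 0.172). Of the 26 regulators of non-fermentable growth 13 were called higher and 1 lower, and these 2 met the rule. Among all genes tested 10.3% were called higher and 3.08% met the rule as higher.

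Of 41 genes for the carnitine shuttle, peroxisomal beta-oxidation and peroxins, 12 were called higher and 1 lower, and 3 met the rule. The shares of all genes were 10.3% called higher and 3.08% meeting the rule as higher. PEX21, a peroxin of protein import, had 35.2, 39.3 and 26.1 in Glc24h and lay at or next to the floor in the sugar cultures. PEX29, a peroxin of the organelle's size and number, gave 20, 29.4 and 25.1 in Glc5h, 41, 57.5 and 48.3 in Glc24h and 28.6, 34.6 and 37.4 in Xyl72h. ECI1, an enoyl-CoA isomerase, had 34.5, 20.4 and 22.9 in Glc24h and at most 16.2 elsewhere. For PEX29 and ECI1 the test against Xyl72h gave adjusted p-values of 0.181 and 0.095, and 0.0471 for PEX29 with the culture number as a block. Among 66 mitochondrial ribosomal proteins 2 were called, MRPL28 and MRPL35, against 10.3% of all genes called higher, and both met the rule with contrasts of 0.86 ± 0.20 and 0.78 ± 0.23. MRPL35 lost its call in 14 of 21 alternatives (adjusted p up to 0.333), and 15 of the 66 were called higher when reference genes set the scale.

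Lower genes that act in or for amino acid synthesis follow. OAC1 is a mitochondrial carrier of oxaloacetate and of a leucine precursor. It gave 809.5, 733 and 188 in Glc5h, 43.1, 40.4 and 57 in Glc24h and 368, 469 and 396 in Xyl72h. Glc5h culture 2 was well below the other sugar cultures, and all 6 sugar cultures stayed above the Glc24h range. The Glc24h signal was 10.4-fold and 8.83-fold lower than in Glc5h and Xyl72h (adjusted p = 0.00261 and 0.0173). ILV3, the dihydroxyacid dehydratase of isoleucine and valine synthesis, gave 214, 311 and 256 in Glc5h, 42.2, 53.3 and 71.8 in Glc24h and 236, 229 and 237 in Xyl72h. ILV1, threonine deaminase, gave 81.1, 136 and 68.5 in Glc5h, 49.1, 51.5 and 42.8 in Glc24h and 74.4, 118 and 69.8 in Xyl72h, with an adjusted p of 0.171 against Xyl72h and 0.0432 with the culture number as a block. Of 13 genes in branched-chain amino acid synthesis 9 were called lower and these 3 met the rule, against 12.6% and 1.9% of all genes. The list's median contrast was -1.04, and -1.18 to -0.92 under the other scalings.

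In other amino acid pathways 26 of 57 genes were called lower and 2 higher, and 7 met the rule as lower. Of all genes 12.6% were called lower and 1.9% met the rule as lower. ARO4 makes the first committed product of aromatic amino acid synthesis, and gave 234, 190.1 and 54.5 in Glc5h, 25.6, 35.6 and 29.5 in Glc24h and 147, 154 and 155 in Xyl72h. As for OAC1, Glc5h culture 2 was low. Its paralogue ARO3 fell too, by 2.15-fold against Glc5h and 1.55-fold against Xyl72h (adjusted p = 0.000444 and 0.0208). For ARO3 Xyl72h was also called lower than Glc5h (log2 difference -0.475, adjusted p = 0.0185, limma). HIS4 and HIS7, of histidine synthesis, gave contrasts of -1.57 ± 0.18 and -1.39 ± 0.22. HIS4 had 652, 513 and 393 in Glc5h, 166, 121 and 149 in Glc24h and 369.8, 334 and 379.6 in Xyl72h. HIS7 had 92.9, 93.2 and 62.9 in Glc5h, 31.6, 37.8 and 20.9 in Glc24h and 65.6, 76.5 and 74.5 in Xyl72h. Both were lower in every Glc24h culture than in any sugar culture. ARG7, of ornithine synthesis, gave 69.7, 133 and 81 in Glc5h, 27.6, 41.3 and 42.3 in Glc24h and 69.2, 79.2 and 90.8 in Xyl72h. The remaining 2 were LYS12 and HIS3, and the HIS3 locus of this strain carries the his3 allele and the inserted XKS1 copy, so its signal cannot be assigned to an intact gene.

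Nucleotide synthesis had 19 of 43 genes called lower and 1 higher, against 12.6% of all genes called lower. The rule was met by 5 of the 43, against 1.9% of all genes as lower. IMD3 and IMD2 encode IMP dehydrogenases of guanine nucleotide synthesis. IMD3 gave 238, 253 and 212 in Glc5h, 53.4, 64.5 and 51.1 in Glc24h and 235, 239 and 196 in Xyl72h, and IMD2 gave 118, 148 and 157 in Glc5h, 26.6, 35.5 and 33.3 in Glc24h and 87.2, 140.2 and 82 in Xyl72h. Their probe sets are shared with near-identical family members, so the signal cannot be assigned to 1 gene. PRS3, a phosphoribosyl pyrophosphate synthetase, gave 136, 115 and 102 in Glc5h, 36.4, 66.9 and 39.3 in Glc24h and 62.9, 106 and 89 in Xyl72h, with a Glc24h culture inside the xylose range. ADE2, of purine synthesis, gave 185, 185 and 163 in Glc5h, 118, 85.9 and 70 in Glc24h and 118, 172 and 138 in Xyl72h. ADE6 was the fifth. ADE6 was called under none of the other 4 scalings and ADE2 under 1.

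Of 81 cytosolic ribosomal protein genes 49 were called lower and 5 met the rule. Over all genes 15% of those called lower and 1.9% of those tested met it. The list's median difference of Xyl72h and Glc5h was -0.76. RPL5 was the only one of these to pass against both sugar states, and gave 1432, 821 and 835 in Glc5h, 422, 398 and 355 in Glc24h and 1110, 785 and 819 in Xyl72h. RPS3 gave 2276, 1211 and 729.7 in Glc5h, 476, 474 and 515 in Glc24h and 1061, 840.4 and 820.1 in Xyl72h. The Glc5h values of RPS3 spanned a wide range and its difference of Xyl72h and Glc5h, -0.49, lay close to the limit. RPL31B, whose probe set is shared within its family, and RPL15A had contrasts of -1.23 ± 0.36 and -1.20 ± 0.34, and the RPL15A groups overlapped. The fifth was RPL16A. RPL31B and RPL15A were called under none of the other 4 scalings, and RPS3 only with the scaling as deposited (adjusted p up to 0.181, 0.147 and 0.198 over all 21 alternatives). The list's median was -1.18, and between -0.98 and -0.78 under the other scalings, where 21 to 50 genes were called lower.

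In ribosome biogenesis 33 of 130 genes were called lower and 1 higher, against 12.6% and 10.3% of all genes. As lower 4 of the 130 met the rule, against 1.9% of all genes. The lower genes that met the rule included NSR1 (nucleolin), NOG1 (a GTPase of the large subunit) and DBP3 (an RNA helicase), and the fourth was UTP5. NSR1 gave 263, 93.4 and 61.1 in Glc5h, 46.2, 16.7 and 17.5 in Glc24h and 159.9, 82.6 and 67.4 in Xyl72h. NOG1 gave 69.2, 64.6 and 40.3 in Glc5h, 23.6, 23.7 and 16.6 in Glc24h and 37.9, 49.4 and 36.1 in Xyl72h. DBP3 was at the floor in Glc24h and gave 41, 49.1 and 23.6 in Glc5h and 26.7, 32.3 and 20 in Xyl72h. All 3 Glc24h cultures stood below the sugar cultures in each of these genes. NSR1, NOG1 and DBP3 did not pass against Xyl72h (adjusted p = 0.13, 0.0783 and 0.241, limma). With the culture number as a block NSR1 and NOG1 did (adjusted p = 0.0121 and 0.0262) and DBP3 did not. The contrasts of NSR1 and DBP3 lost their call in 9 and 11 of 21 alternatives. DRS1, another helicase of the large subunit, was the one called higher, with 26.6, 48.3 and 27 in Glc24h and at most 16.8 elsewhere. RNA polymerases I and III had 12 of 37 genes called lower and 1 higher, against 12.6% and 10.3% of all genes. RET1, a large subunit of polymerase III, met the rule as lower (-0.97 ± 0.22, with overlapping groups), and RRN3, an initiation factor of polymerase I, as higher (1.08 ± 0.29). RET1 did not pass against Xyl72h (adjusted p = 0.161, limma, or 0.0425 with the culture number as a block). RRN3 passed against neither Glc5h nor Xyl72h (adjusted p = 0.0929 and 0.0684), though it did with the block (0.0153 and 0.0175). The contrast of RRN3 lost its call in 10 of 21 alternatives (adjusted p up to 0.116). None of 19 cytosolic tRNA synthetase genes met the rule, though 16 were called lower. Over all genes 15% of those called lower met it.

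The cell wall list had 17 of 51 genes called lower and 2 higher, and 5 met the rule, all lower. Among all genes tested 12.6% were called lower and 1.9% met the rule as lower. CRH1 cross-links chitin to glucan, and gave 214, 173 and 275 in Glc5h, 87.7, 39.1 and 66.4 in Glc24h and 221, 279 and 185 in Xyl72h. EXG1, the major exo-1,3-beta-glucanase, gave 481, 392 and 330.3 in Glc5h, 224, 112 and 114 in Glc24h and 346, 353 and 301 in Xyl72h. Both passed against each sugar state, EXG1 narrowly against Xyl72h (adjusted p = 0.0499). CHS3, a chitin synthase, gave 130.3, 142 and 124 in Glc5h, 91.6, 66.6 and 77.9 in Glc24h and 111, 203 and 158 in Xyl72h. BGL2, an endo-beta-1,3-glucanase, gave 639, 659 and 627 in Glc5h, 450.4, 283 and 419 in Glc24h and 709, 582 and 662 in Xyl72h. The fifth was FKS1, a subunit of glucan synthase. For CHS3 and BGL2 the adjusted p against Xyl72h was 0.0519 and 0.0515, and 0.0432 for BGL2 with the culture number as a block. FKS1 was called under none of the other 4 scalings, and CHS3 and BGL2 under 1. GFA1, which makes the first precursor of chitin and lay next to the limit, gave 60.9, 92.4 and 104 in Glc5h, 46.2, 52 and 38.4 in Glc24h and 82.7, 218 and 91.5 in Xyl72h. GFA1 passed against neither Glc5h nor Xyl72h (adjusted p = 0.116 and 0.092, limma). Its contrast lost its call in 14 of 21 alternatives, the other 4 scalings among them (adjusted p up to 0.158).

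Sterol synthesis had 8 of 25 genes called lower and 1 higher, against 12.6% and 10.3% of all genes. ERG7 and ERG8 met the rule, against 1.9% of all genes as lower. ERG7, lanosterol synthase, gave 61.5, 52.5 and 67.2 in Glc5h, 31.4, 30 and 34.2 in Glc24h and 45.8, 44.1 and 50.9 in Xyl72h, and ERG8, phosphomevalonate kinase, had a contrast of -0.70 ± 0.19. ERG8 was called under none of the other 4 scalings. Only ERG7 passed against both states (adjusted p = 0.0017 and 0.0471). Among 46 mitochondrial carriers and import genes, OAC1, ODC2 and YMC1 met the rule as lower, against 1.9% of all genes. ODC2, a 2-oxodicarboxylate carrier, gave 125, 70 and 29.9 in Glc5h, 16, 16 and 16.5 in Glc24h and 44, 55.1 and 50.4 in Xyl72h. FSF1, a mitochondrial protein of the sideroflexin family, gave 473, 356 and 312 in Glc5h, 102, 87.8 and 82.4 in Glc24h and 360.4, 328 and 291 in Xyl72h, a fall of 4.13-fold and 3.6-fold (adjusted p = 0.000291 and 0.00264). YMC1, a carrier of the mitochondrial inner membrane, had a contrast of -0.44 ± 0.12, and 1 of its xylose cultures lay within the Glc24h range. YMC1 was called under none of the other 4 scalings. YOR385W, of unknown function, had a contrast of -1.39 ± 0.26.

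**Figure D4:**
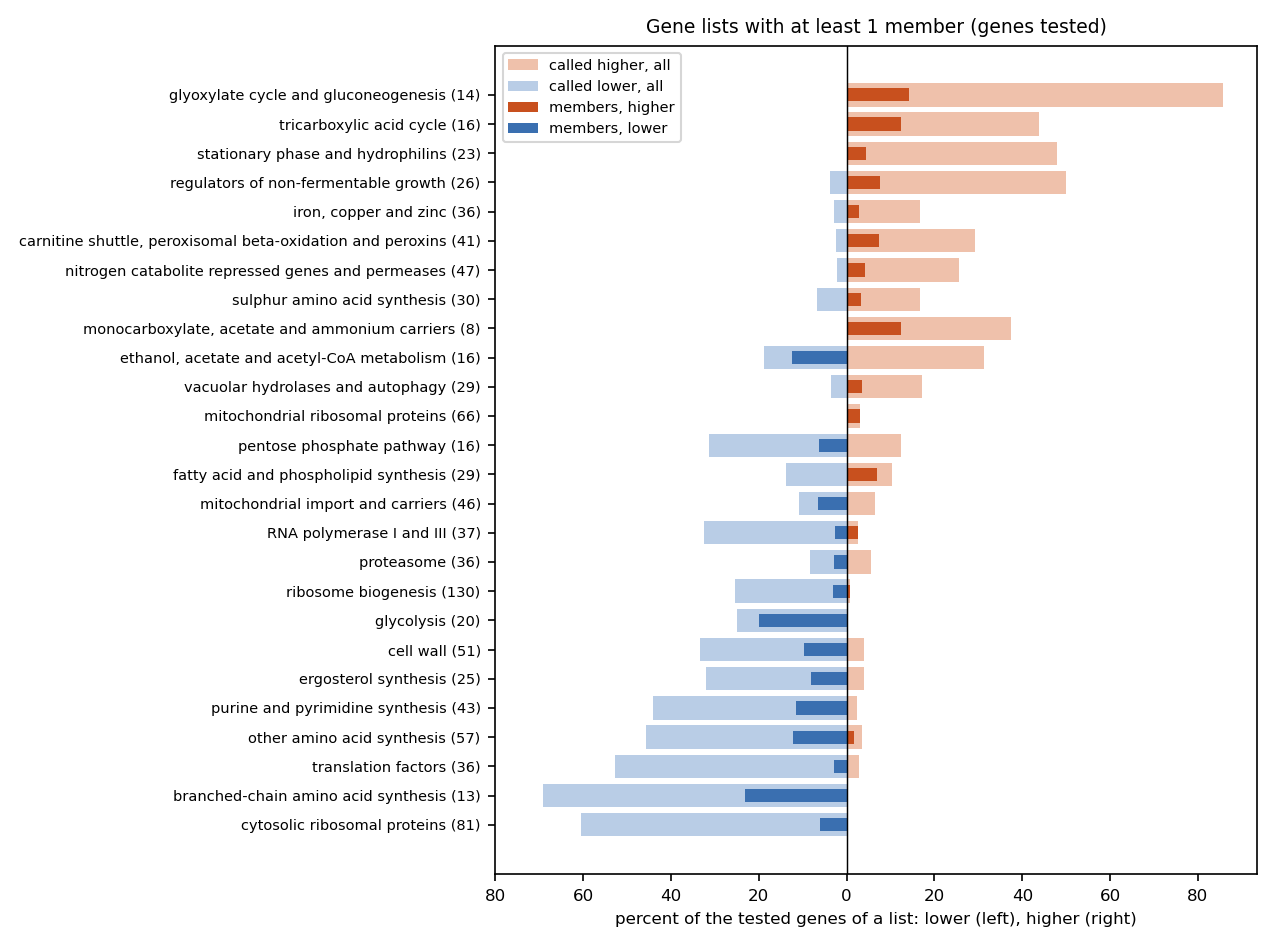
Percent of the tested genes of each list that were called in the contrast (pale bars) or met the rule (dark bars), higher to the right of 0 and lower to the left, with the number of genes tested in parentheses. Over all genes the same shares were 10.3% and 12.6% called and 3.08% and 1.9% meeting the rule. The pale bars of the glyoxylate cycle and of the ribosomal proteins are far longer than their dark bars.

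Of the 233 genes 65 were in at least 1 list. In addition to the respiratory chain, ATP synthase and tRNA synthetases, the lists of 10 hexose transporters, 18 trehalose and glycogen genes, 40 stress and heat shock genes and 40 cell cycle and replication genes held none that met the rule. Over all genes 3.08% met it as higher and 1.9% as lower, so the absence from lists of this size is near the background. Among the trehalose and glycogen genes 8 were called higher, against 10.3% of all genes. When 4 reference genes set the scale, fewer genes were called lower, with 1 in sterol synthesis, 7 in the cell wall, 11 in nucleotide synthesis and 18 in other amino acid synthesis, and the medians of these lists stayed negative.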

How the data were processed

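The authors hybridised labelled RNA to Affymetrix Yeast Genome S98 arrays and extracted the data with MicroArray Suite 5.0. The deposited values are linear intensity signals scaled per array to a 2% trimmed mean of 50, per the values themselves. The methods describe a log2 summary, which these values are not, so the form of the fit for linear signals was used. Titles and source names set the states, since the treatment text of some arrays names another harvest time.

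Of 9335 probe sets 60 controls and 3398 at the floor on every array were left out, and 5877 were tested. Each array was scaled to the median 75th percentile, floored at 16 and taken to log2, and the 3 hybridisations of fermentation 2 were averaged. limma 3.58.1 in R 4.3.3 (lmFit, eBayes) fitted the 3 states over 9 culture means, and two-sided p-values were adjusted by Benjamini and Hochberg's method over the 5877 probe sets. Errors of contrasts are SE on the log2 scale. Folds are ratios of geometric means. The number of arrays limits the precision.

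Probe sets were named through the platform annotation and RefSeq gene IDs (R64). Of these probe sets 6504 had 1 gene name, 328 several and 2443 were not listed. A gene was represented by 1 tested probe set, a plain one before one with a suffix and then the most intense. Besides the 233 genes, 64 further probe sets met the rule. Genes were named by rule: among those passing against both sugar states, the 15 with the largest contrast in each direction; up to 4 of each list with at least 2 genes meeting the rule; the 3 genes on each side of the limit; and 6 called genes of central carbon metabolism that did not meet it. Others named were chosen after their values were seen. The genes, lists and tests were chosen with earlier results of these data known. No set test was run, and a planned promoter search was not run here.

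The labels' fermentation numbers pair Glc5h and Glc24h, which the methods give as samples of 1 culture. The deviations of same-numbered samples correlated at 0.02, 0.19 and 0.26 for these states, 0.11, 0.28 and 0.20 for Glc5h and Xyl72h, and 0.58, 0.53 and 0.57 for Glc24h and Xyl72h. Glc24h and Xyl72h came from separate cultures, and what their same-numbered samples share was not tested. The fit that chose the genes used no pairing, and the number entered as a block only in an alternative fit. Alternatives covered scaling, floor, filter, blocks, single hybridisations, cultures left out and the rule's limits.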

Additional observations from a re-analysis of the deposited data

How the results depend on the processing

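In the setting of the report 527 probe sets were higher and 741 lower in Glc24h, and 144 and 89 genes met the rule. With the scaling as deposited 463 probe sets and 44 genes were lower. Scaling on 4 reference genes gave 978 probe sets higher and 331 lower, and 261 genes higher. The median of all genes was -0.02 in the report, 0.10 with the scaling as deposited and 0.18 with reference genes, so changes are relative to that shift. Without the filter on low values, which raised the number of probe sets tested to 9275, 302 probe sets were higher and 387 lower, and 87 and 41 genes met the rule. The replicate block of the fermentation number gave 143 lower genes, and 42 lower genes passed against Xyl72h in place of 27, a fit added after seeing the data. It moved no other of these counts by over 1.5 times. A limit of 0.3 gave 50 lower genes, and a limit of 1 gave 276 higher and 259 lower. Requiring both pairwise tests left 50 and 25 genes, the F-test in place of the contrast left 59 lower genes, and leaving out genes with a sugar state at the floor left 89 higher genes.

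With 1 culture left out in turn, 349 to 595 probe sets were higher and 338 to 922 lower, and 101 to 159 genes were higher and 42 to 107 lower. The count of lower genes was 47, 59 and 42 without Glc24h culture 0, 1 and 2, and 54 without Xyl72h culture 1. Lower probe sets numbered 399, 480 and 338 without these Glc24h cultures and 475 without Xyl72h culture 1, and 349 probe sets were higher without Glc24h culture 2. The 233 genes kept their direction in all of these fits, which share most of the samples that chose them. Of the 75 genes that passed both pairwise tests, 35 were called in the contrast under all 21 alternatives, and the fewest, 43, were called with a floor of 32. Of 1616 values of the 77 named genes under alternatives, 1332 kept their direction and call, 284 lost the call and none changed sign. The floor limits the weak genes most, since 52.3% of all values lay under it.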

Other observations

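Outside the pathway lists stood 168 of the 233 genes, 122 of them higher and 46 lower in Glc24h. The genes named here were chosen after their values were seen. THI2, an activator of thiamine synthesis genes, gave 16, 19.5 and 16 in Glc5h, 49.7, 40.8 and 32.3 in Glc24h and 18.5, 17.3 and 21.1 in Xyl72h, and KHA1, a potassium and proton antiporter, gave 46.3, 53.8 and 34.5 in Glc5h, 119.9, 98.3 and 91.2 in Glc24h and 59.2, 50.8 and 38.8 in Xyl72h. Both stood clear of the sugar cultures, with contrasts of 1.16 ± 0.16 and 1.14 ± 0.19 (log2, SE). Of mitochondrial genes, COQ2 of ubiquinone synthesis gave 23.1, 26.4 and 20.1 in Glc5h, 32.7, 43.8 and 48.6 in Glc24h and 22.2, 20.4 and 22.1 in Xyl72h, and RPO41, the mitochondrial RNA polymerase, gave 34.2, 37.8 and 22.2 in Glc5h, 48.3, 73.2 and 65.2 in Glc24h and 38.5, 30.9 and 39.4 in Xyl72h. COQ2 passed against both sugar states, and RPO41 did not pass against Xyl72h (adjusted p = 0.13, limma). Among the lower genes, ASF1, a histone chaperone, gave 90, 76.1 and 68.4 in Glc5h, 35.4, 33.8 and 30.7 in Glc24h and 77.6, 87.8 and 57.9 in Xyl72h, and CKB1, a regulatory subunit of casein kinase 2, gave 69.8, 83 and 83.2 in Glc5h, 36.7, 40.8 and 39.9 in Glc24h and 60.2, 55.5 and 57.4 in Xyl72h. Both fell against each sugar state (adjusted p = 0.00216 and 0.0155 for ASF1, 0.000597 and 0.0293 for CKB1). For CKB1 Xyl72h was also called lower than Glc5h (log2 difference -0.442, adjusted p = 0.0227, limma). RIB3, of riboflavin synthesis, gave 114, 106 and 126 in Glc5h, 54.6, 45.3 and 80.7 in Glc24h and 113, 140.3 and 171 in Xyl72h, and the xylose cells were the highest in mean signal.

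For 11 of the 233 genes 19 further probe sets of the same gene, which read the same RNA and were not used to choose it, were tested. All 19 had the direction of the first, and 4 were called, a share near the 21.6% of all probe sets. Of these 4, 2 belong to IMD2 and another to YOR192C-C, on probe sets shared within a family, and cannot be assigned to 1 gene. FAB1 had 0.76 on its second probe set against 0.82 on the first, while APC1 had 0.11 against 0.72.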
